A study of Mus musculus with 14 samples.

Results

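The cytosolic ribosomal proteins are the genes named Rpl or Rps, whose products build the large and the small subunit of the ribosome outside mitochondria. Members were chosen by symbol: every gene starting with Rpl or Rps and a digit, plus Rplp0, Rplp1, Rplp2 and Rpsa, leaving out the Rps6k kinases. The array held 66 such genes on 84 probes, among 16593 genes with a symbol. Of these 66, 58 were detected on at least 3 arrays and were tested, together with 9711 genes in all. By symbol, 34 of the tested members belonged to the large subunit and 24 to the small one. The 8 members not tested were Rpl14, Rpl17, Rpl39l, Rpl3l, Rpl6, Rplp2, Rps23 and Rps23rg1, whose probes were detected on 0 to 2 arrays. Rps19bp1, a binding partner of Rps19, and Rps23rg1 were members by name only, since their products are not ribosomal proteins.

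RNA of whole mouse liver was profiled on Illumina BeadChips, 1 array per sample. Mice had received a plasmid expressing interleukin 13 (IL-13) or the green fluorescent protein EGFP by hydrodynamic delivery, a fast tail vein injection of a large volume that brings DNA into hepatocytes, and livers were taken 1 week later. Each genotype, wild type and Alb-Cre+ (called Alb-Cre here), had 4 livers that received EGFP and 3 that received IL-13. The series title places Alb-Cre on a floxed Il4ra, the gene of the alpha chain shared by the IL-4 and IL-13 receptors. The albumin promoter drives Cre in hepatocytes, so other liver cells keep the receptor, and no probe read Il4ra. The sources used here do not give the age, sex or strain of the mice, nor whether the wild type carried the floxed allele. The labels do not say that samples came from separate mice, so a p-value reflects only how far the samples of a group spread, and that spread may be technical.

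A ribosome holds 1 copy of nearly every ribosomal protein, and cells make these proteins in matched amounts together with ribosomal RNA. Their messengers are among the most abundant in liver. In mammals, most of them start with a C followed by a run of pyrimidines, the TOP motif, through which the kinase mTOR adjusts their translation. Growth signals raise ribosome production, and unused ribosomal proteins such as Rpl5 bind MDM2 and so stabilise p53.

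Of 25697 probes, each array detected 11554 to 13261, and the number of arrays limits the precision of every value. Hepatocyte markers were present in all groups, with 12 of 12 on the array detected. Of 8 T cell markers on the array, 6 were detected with EGFP in wild type and 4 in Alb-Cre. With IL-13, 1 was detected in wild type and 3 in Alb-Cre, and Cd4 and Cd8a were detected in no group. Sex-linked transcripts crossed the groups: Xist was detected on the 8 EGFP arrays and on wild-type IL-13 replicates 1 and 2, while the Y-linked Eif2s3y was detected in Alb-Cre livers with IL-13 (3 of 3 arrays) and on replicate 3 of wild type with IL-13. Within Alb-Cre, this pattern and the plasmid cannot be told apart. Counts of members and the main Alb-Cre changes are also given with the pattern as a covariate, but the covariate is estimated from 1 array, wild-type IL-13 replicate 3 against replicates 1 and 2. Replicates 1 and 2 of each group lay on slide 1 and replicates 3 and 4 on slide 2.

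On average, the ribosomal protein genes stood higher on every IL-13 array than on every EGFP array after quantile normalisation, and also as a share of the raw signal. Averaged over the 58 tested members, the log2 signal was 10.56, 10.54, 10.52 and 10.52 on the wild-type EGFP arrays and 10.57, 10.53, 10.53 and 10.57 on the Alb-Cre EGFP arrays. It was 11.08, 11.01 and 10.89 with IL-13 in wild type and 10.80, 10.88 and 10.71 with IL-13 in Alb-Cre. All 3 wild-type IL-13 arrays therefore lay above the Alb-Cre ones, by a margin of under 0.01 between the lowest of the former and the highest of the latter. Before any normalisation, intensities were summed on each array over the probes that stood for the tested genes. The probes of the 58 tested members carried 3.85 ± 0.073% (SD, n = 4) of that sum with EGFP in wild type and 3.94 ± 0.069% (SD, n = 4) in Alb-Cre. With IL-13 this share was 5.06 ± 0.39% (SD, n = 3) in wild type and 4.46 ± 0.22% (SD, n = 3) in Alb-Cre. In this raw share the IL-13 arrays of the genotypes overlapped, with the lowest wild-type array at 4.64% and the highest Alb-Cre array at 4.67%.

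**Figure D1:**
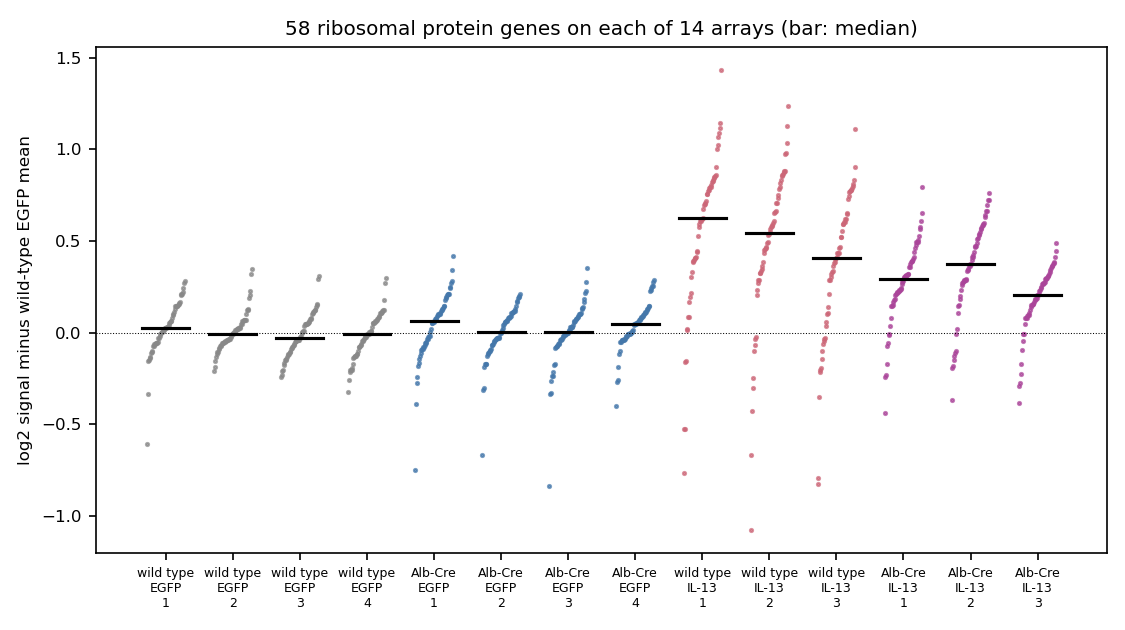
Each point is 1 of the 58 tested ribosomal protein genes on 1 array, as its log2 signal minus the mean of the 4 wild-type EGFP arrays, and bars mark the array's median. The bars of the 8 EGFP arrays lie near 0, while those of the 6 IL-13 arrays lie above it. By the members' mean log2 signal, wild-type IL-13 replicate 3 (10.89) and Alb-Cre IL-13 replicate 2 (10.88) were nearly level.

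In wild-type liver, IL-13 raised 39 of the 58 tested members and lowered 3, and 16 were not called. A call needed an adjusted p under 0.05 in limma's moderated test, with Benjamini-Hochberg adjustment over all 9711 genes. Of all genes tested, 21.5% were called higher and 19.2% lower, and a different scaling of the arrays, without quantile normalisation, gave 1624 higher and 2310 lower genes in place of 2090 and 1862. The members' median log2 change was 0.53, a fold of 1.44, beside 0.00 over all genes. With that other scaling the median was 0.24, where all genes shifted to a median of -0.08, and 22 members were higher and 3 lower. Rps2, called at 0.36 ± 0.11 (adjusted p = 0.0142), measured -0.03 with it. The arrays of the groups did not overlap for 40 members that were higher and 2 that were lower with IL-13, against 22.7% and 20.7% of all genes. In a bulk sample, more cells of a type and more RNA per cell cannot be told apart.

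Of 24 members in the small subunit by symbol, 21 were higher and 1 lower (median 0.60). The lower one was Rps19bp1, a member by name only. In the large subunit 18 of 34 were higher and 2 lower (median 0.45). The difference between the subunits was not tested. Called members spanned much of the signal range. Between a mean log2 signal of 11 and 13, 26 of 29 members were higher and their median was 0.64. The 377 genes of that range had a median of 0.05, with 32.1% called higher and 30.8% lower. Above 13, 3 of 8 members were higher (median 0.26), beside 12.7% higher and 28.6% lower of all genes there. At 8 or less, 4 of 10 were higher and 2 lower (median 0.15), beside 19.8% and 16.4% of all genes there.

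Rpl12, which sits at the base of the stalk that recruits translation factors, had the largest rise. It measured 10.71, 10.57, 10.60 and 10.70 with EGFP and 12.08, 11.88 and 11.76 with IL-13 in wild type. The groups did not overlap, and the log2 change of 1.26 ± 0.11 (limma's standard error) was a 2.39-fold rise (adjusted p = 3.55e-07). Rplp0, the scaffold of the same stalk, went from 5.25, 5.03, 5.09 and 5.49 to 6.05, 6.07 and 5.74. Its groups did not overlap either, and its change was 0.74 ± 0.16 (adjusted p = 0.00123). The Rplp0 probe was dim, with a mean log2 signal of 5.38. Its change was 0.75 without quantile normalisation and 0.31 in the deposited log2 table, called in both. Rplp1, a tip protein of the stalk, measured 13.90, 13.84, 13.98 and 14.00 with EGFP and 14.34, 14.20 and 13.97 with IL-13. IL-13 replicate 3 fell among the EGFP arrays, and the change of 0.24 ± 0.10 was not called (adjusted p = 0.0644).

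Rps3, which lines the channel where messengers enter the small subunit, measured 10.64, 10.65, 10.38 and 10.66 with EGFP and 11.70, 11.71 and 11.37 with IL-13. Its groups were apart although EGFP replicate 3 was low, and it rose 2.02-fold (1.01 ± 0.11, adjusted p = 3.67e-06). A second Rps3 probe gave a log2 change of 1.04. Rps3a1, another small subunit protein, measured 6.77, 6.82, 6.68 and 6.92 and then 7.94, 7.68 and 7.70. It rose 1.97-fold (0.97 ± 0.11, adjusted p = 4.92e-06), with no overlap. Rps19, a protein of the small subunit head whose loss in humans causes Diamond-Blackfan anaemia, measured 11.98, 11.91, 11.83 and 11.80 and then 12.97, 12.86 and 12.68. Every IL-13 array was above every EGFP array, and the rise was 1.94-fold (0.96 ± 0.10, adjusted p = 2.07e-06). A second, dim Rps19 probe, with a mean log2 signal of 5.03, gave -0.06 and was not called.

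The head of the small subunit, the part that binds the messenger's path and the transfer RNAs from above, was represented by 8 listed members, and all 8 were higher in wild type (median 0.66). They ran from Rps20 (0.28 ± 0.10, adjusted p = 0.0337) to Rps3. Rps20 lost its call in 5 of 14 fits that left out 1 array each, and its median scaling value was 0.13. Rps9, outside the head, rose 1.82-fold from 10.90, 10.87, 10.83 and 11.02 to 11.74, 11.88 and 11.69 (0.86 ± 0.12, adjusted p = 3.69e-05). The groups were apart, and its second probe gave 0.85. Rps6, the substrate of the S6 kinases that act downstream of mTOR, measured 11.78, 11.75, 11.74 and 11.90 with EGFP and 12.32, 12.25 and 12.44 with IL-13. It rose 1.46-fold without overlap (0.54 ± 0.09, adjusted p = 0.000183).

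In the large subunit, Rpl39, a small protein of the exit tunnel through which new chains leave, measured 11.66, 11.41, 11.22 and 11.26 with EGFP and 12.29, 12.42 and 12.01 with IL-13. It rose 1.81-fold without overlap (0.85 ± 0.13, adjusted p = 8.04e-05). Rpl5 binds the smallest ribosomal RNA of the large subunit and carries it into the ribosome. It measured 11.13, 11.35, 11.01 and 10.99 and then 11.96, 11.78 and 11.50, a rise of 0.63 ± 0.12 (adjusted p = 0.000774) with no overlap. Of 7 listed members at the exit tunnel and its rim, 5 were higher and 2, Rpl4 and Rpl22, were lower.

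The 3 members that fell went against the rest. Rpl22, an RNA-binding protein at the outer face of the large subunit that is dispensable for viability in mice, measured 9.72, 9.47, 9.53 and 9.58 with EGFP and 8.81, 8.50 and 8.78 with IL-13. All IL-13 arrays were below all EGFP arrays, and the level fell by 0.88 on the log2 scale, 1.84-fold lower (SE 0.13, adjusted p = 5.25e-05). Rpl4, whose extended arm lines the exit tunnel, measured 7.89, 7.95, 8.03 and 7.95 with EGFP. With IL-13 it measured 7.43, 7.29 and 7.92, and replicate 3 lay within the EGFP range. Its change was -0.41 ± 0.13 (adjusted p = 0.0198), and the call was lost in 2 of the 14 fits that left out 1 array, with values between -0.60 and -0.28. On slide 2 alone, where replicate 3 is the single IL-13 array, Rpl4 changed by -0.07. Rps19bp1, not a ribosomal protein, went from 6.09, 6.06, 6.29 and 6.21 to 5.64, 5.74 and 5.34, a change of -0.59 ± 0.11 (adjusted p = 0.000515) with no overlap. These 3 were called lower under both other scalings too, and 21 of the 39 higher members were called higher under both.

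None of the 4 paralogs tested was called in wild type. Rpl22l1, which mouse Rpl22 is known to repress, measured 5.07, 5.08, 5.20 and 4.93 with EGFP and 5.52, 5.36 and 5.38 with IL-13. The groups were apart, but the change of 0.35 ± 0.14 was not called (adjusted p = 0.0583). Rps27l, a p53 target, changed by 0.11 ± 0.11 where Rps27 rose by 0.57 ± 0.15 (adjusted p = 0.00627). Rpl36al changed by 0.12 ± 0.10 where Rpl36a rose by 0.68 ± 0.16 (adjusted p = 0.00242). Rpl7l1 changed by 0.04 ± 0.13. The difference between a paralog and its partner was not tested.

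The remaining members not called in wild type had log2 changes between -0.20 (Rpl21) and 0.52 (Rpl7a). Rpl7a measured 9.16, 9.79, 10.06 and 10.07 with EGFP and 9.99, 10.34 and 10.54 with IL-13, so that its groups overlapped (adjusted p = 0.0507). Rpl13a, a member released from the ribosome on interferon gamma in human monocytes, measured 8.22, 8.26, 8.0 and 7.81 and then 7.92, 7.83 and 8.51. Only IL-13 replicate 3 was above the EGFP arrays, and the change was 0.01 ± 0.17. Rpl41, the smallest ribosomal protein, changed by 0.23 ± 0.11 and Rpl23 by -0.08 ± 0.10, both at mean log2 signals above 13. A second Rpl23 probe rose by 0.58 and another one gave -0.18, so the Rpl23 value depended on the probe. The same held for Rpl38, whose brighter probe gave 0.29 and was not called and whose dimmer one rose by 0.84. Rpl31, counted among the higher members at 0.53, had a dimmer probe at -0.15 in wild type, and that probe was called higher for the difference of responses (0.51) where the brighter one gave -0.34. Rpl21 and Rpsa, at mean signals of 4.61 and 4.36, were near the floor, and Rpsa was detected on 3 arrays in all. Ribosomal protein genes have many near-identical pseudogenes, and which copies a probe binds was not tested.

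**Figure D2:**
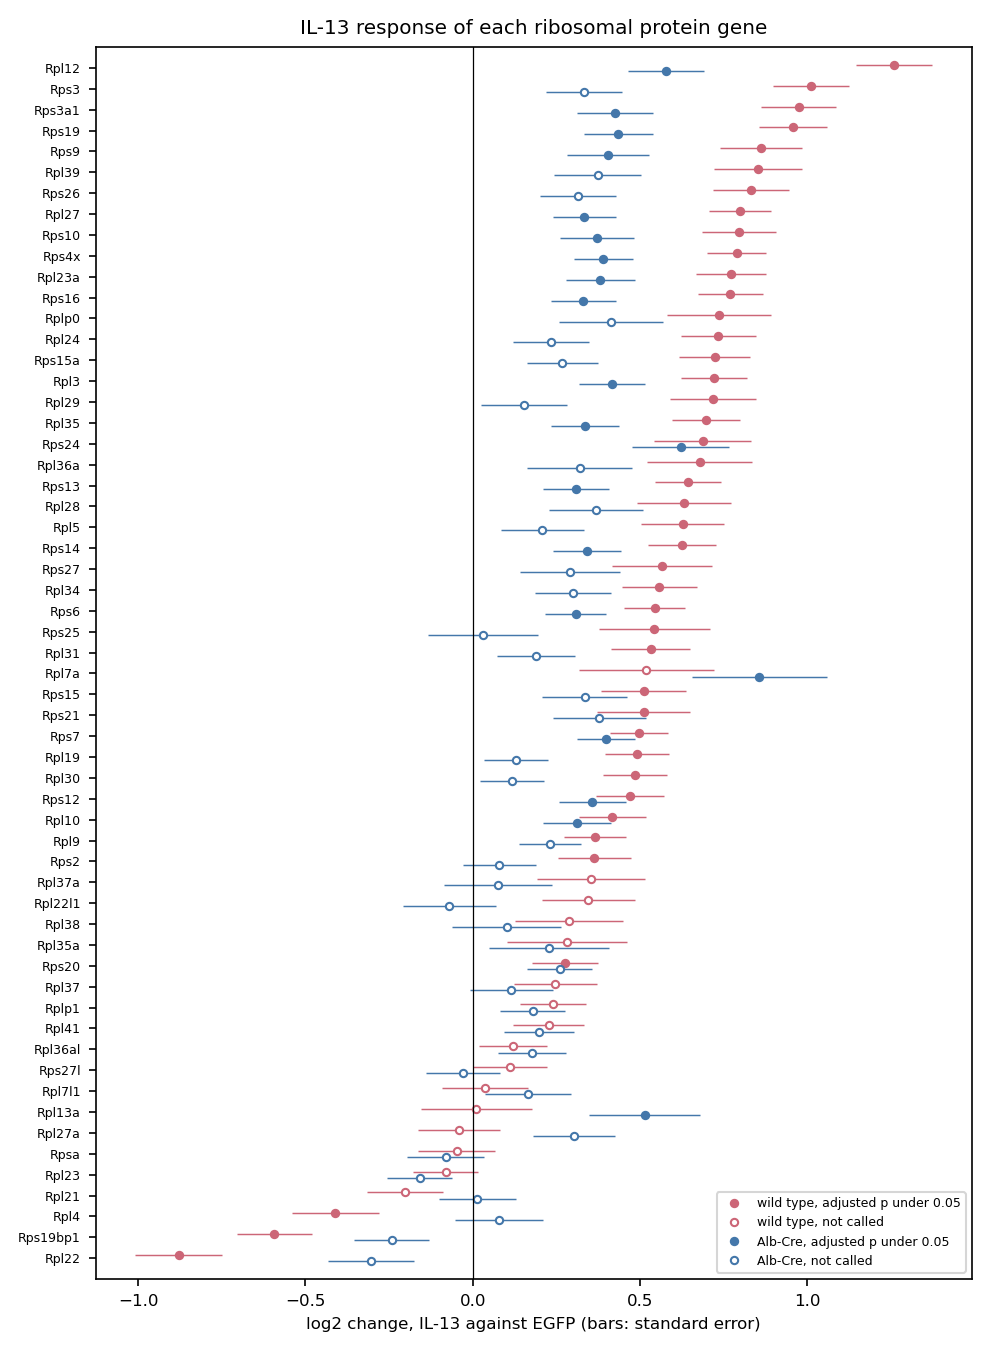
Log2 change with IL-13 against EGFP for each of the 58 tested members, ordered by the wild-type value, with bars of 1 standard error and filled points for an adjusted p under 0.05. Wild type (red) lies to the right of Alb-Cre (blue) for most members, from Rpl12 at 1.26 and 0.58 down to Rpl22 at -0.88 and -0.30.

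**Figure D3:**
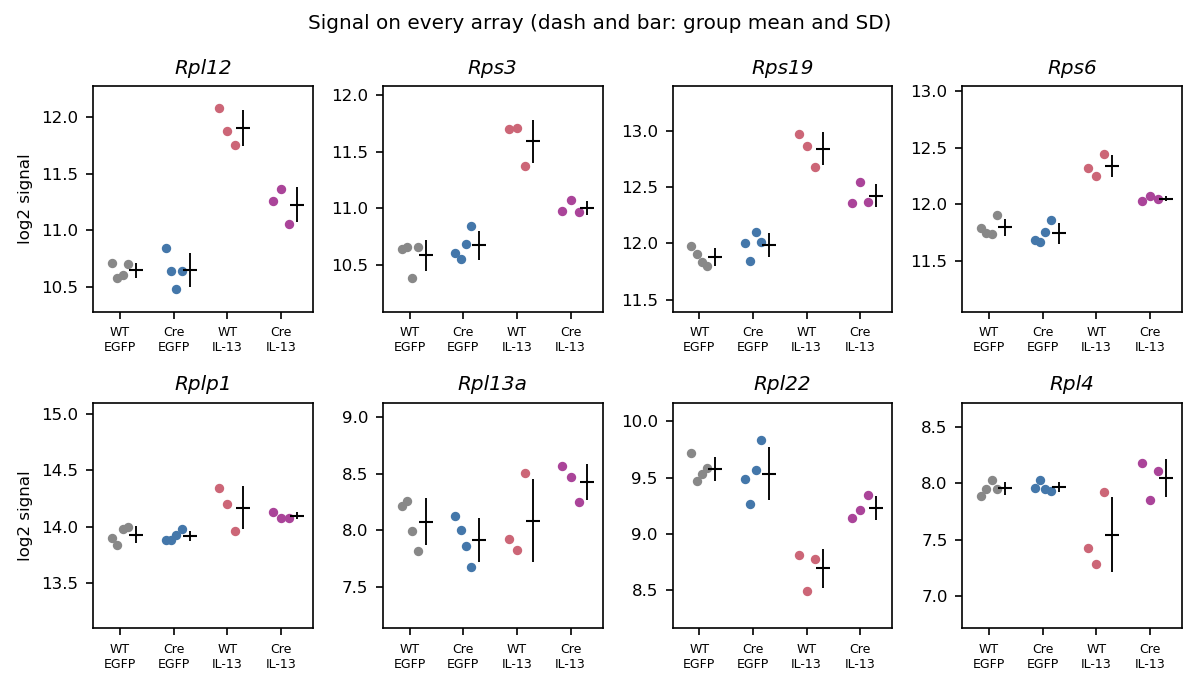
Log2 signal of 8 members on every array, with the group mean and SD beside the points; WT is wild type and Cre is Alb-Cre. Rpl12, Rps3, Rps19 and Rps6 are higher on all IL-13 arrays than on all EGFP arrays, Rpl22 is lower in wild type with IL-13, and for Rpl4 and Rpl13a 1 wild-type IL-13 array stands apart from the other 2.

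Since these genes moved together, the sequence around their annotated starts was read from RefSeq (GRCm38.p6), in which 50 of the 58 tested members matched, with 60 starts. A tract was counted where a C was followed by at least 5 more bases that were each C or T, on the sense strand, within the 30 bases centred on the start. Such a tract was found for 26 of 50 member genes (52.0%), for 27.7% of 7878 tested genes and for 28.6% of 63 mitochondrial ribosomal protein genes. The 30-base windows of 8 members are shown because they pair the sequence with the different responses, and capitals mark the tract. Rps10, Rpl35, Rps6 and Rpl28 rose in wild type, Rpl13a was not called, and Rpl4 fell, all with a tract. Rps3 rose and Rpl22 fell, and their windows hold none.
Rps10, chr17:27635230-27635259, minus strand: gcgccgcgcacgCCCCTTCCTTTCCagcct
Rpl35, chr2:39005117-39005146, minus strand: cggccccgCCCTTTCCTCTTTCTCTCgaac
Rps6, chr4:86857353-86857382, minus strand: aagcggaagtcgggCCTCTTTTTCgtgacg
Rpl28, chr7:4792950-4792979, plus strand: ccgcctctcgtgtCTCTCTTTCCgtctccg
Rpl13a, chr7:45128731-45128760, minus strand: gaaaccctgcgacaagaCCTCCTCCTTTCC
Rpl4, chr9:64173372-64173401, plus strand: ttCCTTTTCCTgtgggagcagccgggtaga
Rps3, chr7:99483695-99483724, minus strand: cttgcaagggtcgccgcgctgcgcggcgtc
Rpl22, chr4:152325711-152325740, plus strand: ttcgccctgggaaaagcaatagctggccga

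With a tract, 18 of 26 members were higher in wild type and the median was 0.54, and without one 15 of 24 were higher and the median was 0.50. In Alb-Cre the medians were 0.31 and 0.23. Over the 300 bases from 250 before to 50 after the start, on both strands, the motif CCGGAAG was in 38.0% of member genes, 19% of tested genes and 39.7% of mitochondrial ribosomal protein genes. The motif AAGATGG was in 20.0%, 8.47% and 19%. A match is a description of the letters, and annotated starts may differ from those used in liver.

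In Alb-Cre liver, 20 of the 58 members had a higher level after IL-13 than after EGFP and 0 had a lower one, in a comparison where plasmid and sex-linked pattern coincide. Of all genes, 11.1% were called higher and 7.83% lower. At an unadjusted p under 0.05, 32 members were higher and 2 lower, beside 31.0% of all genes in either direction. The median was 0.30, beside -0.02 over all genes. The count depended on the scaling: without the quantile step all genes shifted to a median of -0.14, the members' median was 0.03, and 3 were higher (Rpl12, Rpl7a and Rps3a1) and 3 lower (Rpl22, Rpl23 and Rps27l). In the authors' deposited log2 table, 7 were higher and 0 lower, with a median of 0.22. Over all genes these scalings gave 837 higher and 1419 lower, and 1111 and 300, in place of 1080 and 760. The arrays did not overlap for 34 members that were higher and 1 that was lower, against 15.1% and 13.7% of all genes.

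The Alb-Cre count also moved with single arrays. It was 8 without IL-13 replicate 2 and 12 without EGFP replicate 2 or 3, and Rpl22 was called lower (-0.39) without EGFP replicate 2. With the sex-linked pattern as a covariate, which rests on 1 array, 10 members were higher, 6 of them among the 20, and the median was 0.45. Calls over all genes fell too, to 547 higher in place of 1080. On slide 1 alone 3 members were higher (Rpl12, Rpl7a and Rps24), beside 585 of all genes, and the median was 0.36. On slide 2 alone, which holds 1 IL-13 array per genotype, the median was 0.18. Each of these fits has fewer arrays.

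Rpl7a, a large subunit protein, had the largest rise in Alb-Cre. It measured 9.02, 9.10, 8.93 and 9.51 with EGFP and 9.92, 10.03 and 10.04 with IL-13. The groups were apart, and it rose 1.81-fold (0.86 ± 0.20, adjusted p = 0.00684). Its level in Alb-Cre differed from that in wild type by -0.63 with EGFP and by -0.29 with IL-13, and neither was called. Rps24, a small subunit protein also mutated in Diamond-Blackfan anaemia, measured 11.84, 11.84, 11.68 and 11.71 and then 12.54, 12.51 and 12.11. It rose by 0.62 ± 0.14 (adjusted p = 0.0064) without overlap, beside 0.69 ± 0.14 in wild type, and the difference of -0.07 ± 0.20 was not called (adjusted p = 0.883). Rpl12 measured 10.84, 10.64, 10.47 and 10.64 with EGFP and 11.25, 11.37 and 11.06 with IL-13, a rise of 0.58 ± 0.11 (adjusted p = 0.00186) without overlap. These 3 were called in all 14 fits that left out 1 array. With the sex-linked pattern as a covariate, Rpl7a was 0.49 and no longer called, while Rps24 was 1.16 and Rpl12 was 0.80, both called. A second, dim Rps24 probe, with a mean log2 signal of 5.39, gave 0.23 in Alb-Cre and 0.07 in wild type and was called in neither.

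Rpl13a measured 8.13, 8.0, 7.86 and 7.67 with EGFP and 8.57, 8.47 and 8.25 with IL-13 in Alb-Cre. All IL-13 arrays were above the EGFP arrays, and the change was 0.51 ± 0.17 (adjusted p = 0.0409). With the sex-linked pattern as a covariate its value turned to -0.12 (adjusted p = 0.836). The wild-type IL-13 array with the Y-linked transcript was also the high one for Rpl13a, at 8.51. Rps19 rose by 0.44 ± 0.10 (adjusted p = 0.00676) and Rps3a1 by 0.43 ± 0.11 (adjusted p = 0.0145) in Alb-Cre. With the covariate they were 0.67, still called, and 0.53, no longer called. Of the 20 members higher in Alb-Cre, 18 were also higher in wild type, which is 90% of the Alb-Cre list and 46.2% of the wild-type list of 39. The other 2 were Rpl7a and Rpl13a, for which the difference of responses was not called (adjusted p = 0.502 and 0.183).

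By the test of the difference of responses, the rise with IL-13 was smaller in Alb-Cre for 9 members, and the fall was smaller for 1, Rpl22. The difference, Alb-Cre minus wild type, was below 0 for those 9 and above 0 for Rpl22. Of all genes, 6.50% were called lower and 6.65% higher in this test. The median difference was -0.28, beside -0.01 over all genes, and 49 of 58 members were below 0. Rpl12 differed by -0.68 ± 0.16 (adjusted p = 0.0114) and Rps3 by -0.68 ± 0.16 (adjusted p = 0.0117), and these 2 were called in all 14 fits that left out 1 array. The others were Rps3a1 (-0.55), Rps19 (-0.52), Rps26 (-0.52), Rpl24 (-0.50), Rpl27 (-0.46), Rps16 (-0.44) and Rps4x (-0.40), with adjusted p between 0.0266 and 0.0496. Rps26 sits where messengers leave the small subunit, and Rpl24 forms a contact between the subunits. Rpl22 differed by 0.58 ± 0.18 (adjusted p = 0.0489), since it measured 9.48, 9.26, 9.57 and 9.83 with EGFP and 9.14, 9.21 and 9.35 with IL-13 in Alb-Cre. There the groups overlapped, and its change was -0.30 ± 0.13 (adjusted p = 0.118).

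These counts moved with single arrays and with the scaling. The lower count was 3 to 5 without any 1 of wild-type EGFP replicates 1 to 4, Alb-Cre EGFP replicates 2, 3 or 4, wild-type IL-13 replicates 1 or 2 and Alb-Cre IL-13 replicates 1 or 3, and 3 to 11 over all 14 such fits. Rpl22 was called in 2 of the 14, and Rps4x in 0. Without the quantile step the counts were 0 higher and 3 lower (Rpl12, Rps3 and Rps4x), and the deposited log2 table gave 2 higher (Rpl22 and Rpl4) and 0 lower. With the sex-linked pattern as a covariate they were 0 and 0, where Rpl12 kept a value of -0.53 and Rps3 of -0.46. Of all genes, 480 were higher and 410 lower with it, in place of 646 and 631. The comparison within 1 slide gave 0 and 0 for both slides, with values for Rpl12 of -0.77 and -0.60.

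With IL-13, Alb-Cre livers had lower levels than wild type of 20 members and higher levels of 2. Of all genes, 11.2% were called lower and 10.7% higher. This comparison shares its IL-13 arrays with those above. The median was -0.22, beside -0.01 over all genes, and the groups did not overlap for 25 members lower and 3 higher in Alb-Cre (17.2% and 15.9% of all genes). By the arrays already given, Rpl12 was at most 11.37 in Alb-Cre and at least 11.76 in wild type, a difference of -0.68 ± 0.12 (adjusted p = 0.000944). Rps3 measured 10.97, 11.07 and 10.96 in Alb-Cre, below all wild-type arrays, and differed by -0.59 ± 0.12 (adjusted p = 0.00253). Rpl24 differed by -0.50, Rplp0 by -0.48, Rps9 by -0.47 and Rps3a1 by -0.45, with adjusted p between 0.00732 and 0.0484. Of the 14 fits that left out 1 array, Rpl24 was called in 14, Rps3a1 in 12, Rps9 in 11 and the dim Rplp0 in 5.

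Rpl22 and Rpl4 were higher in Alb-Cre than in wild type with IL-13, by 0.54 ± 0.14 (adjusted p = 0.0111) and 0.50 ± 0.14 (adjusted p = 0.0174). Rpl4 measured 8.18, 7.85 and 8.11 in Alb-Cre, and its lowest value lay below wild-type replicate 3. The count of 20 became 5 without Alb-Cre IL-13 replicate 3, 8 and 10 without wild-type IL-13 replicates 1 and 2, and 12 without Alb-Cre IL-13 replicate 1. Without the quantile step 2 members were higher and 7 lower, and the deposited log2 table gave 2 and 5. With the sex-linked pattern as a covariate 3 were lower (Rpl12, Rpl24 and Rpl27) and 1 was higher (Rps19bp1). Rpl22 at 0.45 and Rpl4 at 0.13 were no longer called. Of all genes, 596 were lower and 661 higher with the covariate, in place of 1091 and 1039. On slide 1 alone 2 were lower (Rpl12 and Rps3) and 2 higher (Rpl13a and Rpl4), and on slide 2 alone none was called.

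Between genotypes with EGFP, no member was called in limma's test, nor was any of the 9711 genes (0%). At an unadjusted p under 0.05, 1 member differed, Rpl7a, which was lower in Alb-Cre (-0.63), beside 3.75% of all genes. The members' median was 0.02. No other setting tried called a member in this comparison.

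Counts for other genes of ribosome production and translation are read beside the shares of all genes, 21.5% higher and 19.2% lower in wild type and 11.1% and 7.83% in Alb-Cre. Fau, a small subunit protein with another name, rose by 0.62 ± 0.13 in wild type (adjusted p = 0.000931). Of 71 mitochondrial ribosomal proteins tested, which build the separate ribosome of mitochondria, 7 (9.86%) were higher and 15 (21.1%) lower in wild type (median -0.05), and 0 higher and 3 (4.23%) lower in Alb-Cre (median -0.07). The lower shares are near or under those of all genes. Mrpl17 rose by 1.09 ± 0.10 (adjusted p = 6.28e-07) and Mrpl49 changed by -1.15 ± 0.14 (adjusted p = 6.21e-06) in wild type. Of 28 initiation factors, 12 (42.9%) were higher and 2 lower in wild type (median 0.29), led by Eif1a (1.95 ± 0.16, adjusted p = 9.68e-08), and 3 were higher and 1 lower in Alb-Cre. Of 10 elongation and termination factors, 5 were higher and 0 lower in wild type (median 0.30), among them Eef1b2 (0.85 ± 0.11, adjusted p = 1.94e-05), and 3 were higher in Alb-Cre. Of 16 other messengers known to carry a TOP motif, 10 (62.5%) were higher and 1 lower in wild type (median 0.44), and 3 were higher in Alb-Cre. This list is not separate from those above, since it shares genes such as Fau, Eef1b2, Eef1g, Eif3f and Eif4b with them.

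Ribosome assembly factors, which process ribosomal RNA and join proteins to it, were higher for 20 of 46 (43.5%) and lower for 3 in wild type (median 0.26). In Alb-Cre 1 was higher and 2 were lower (median 0.01), and the difference of responses was called for 6, all lower. Gnl3, nucleostemin, rose by 1.25 ± 0.13 in wild type (adjusted p = 1.98e-06) and differed by -0.94 ± 0.19 between responses (adjusted p = 0.00395). Of 10 genes of RNA polymerase I, which makes ribosomal RNA, 3 were higher in wild type (Polr1e 0.67, Polr1a 0.47 and Taf1d 0.38) and 0 in Alb-Cre. Among 17 genes that control TOP messengers, 4 were higher and 4 lower in wild type, 23.5% each and near the shares of all genes, and none was called in Alb-Cre. Tsc2, a brake on mTOR, changed by -0.79 ± 0.12 (adjusted p = 0.000103). The translation repressors that mTOR inactivates differed in direction: Eif4ebp1 rose by 0.74 ± 0.14 (adjusted p = 0.000614), and Eif4ebp2 changed by -0.67 ± 0.12 (adjusted p = 0.000349).

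Of 5 genes of the p53 response, 3 were higher and 2 lower in wild type. Cdkn1a, a cell cycle inhibitor, rose by 2.31 ± 0.31 (adjusted p = 2.38e-05) and Ccng1 changed by -0.59 ± 0.14 (adjusted p = 0.00252). Several members serve as reference genes in quantitative PCR. Of 5 such members tested, 3 were higher (Rplp0, Rpl27 and Rpl19), 1 was lower (Rpl4) and 1 was not called (Rpl13a) in wild type. The Rplp0 probe was dim. Among 8 other reference genes 5 were higher and 1 lower, including Actb (0.87 ± 0.12, adjusted p = 3.91e-05) and Hprt (0.56 ± 0.09, adjusted p = 0.000189).

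**Figure D4:**
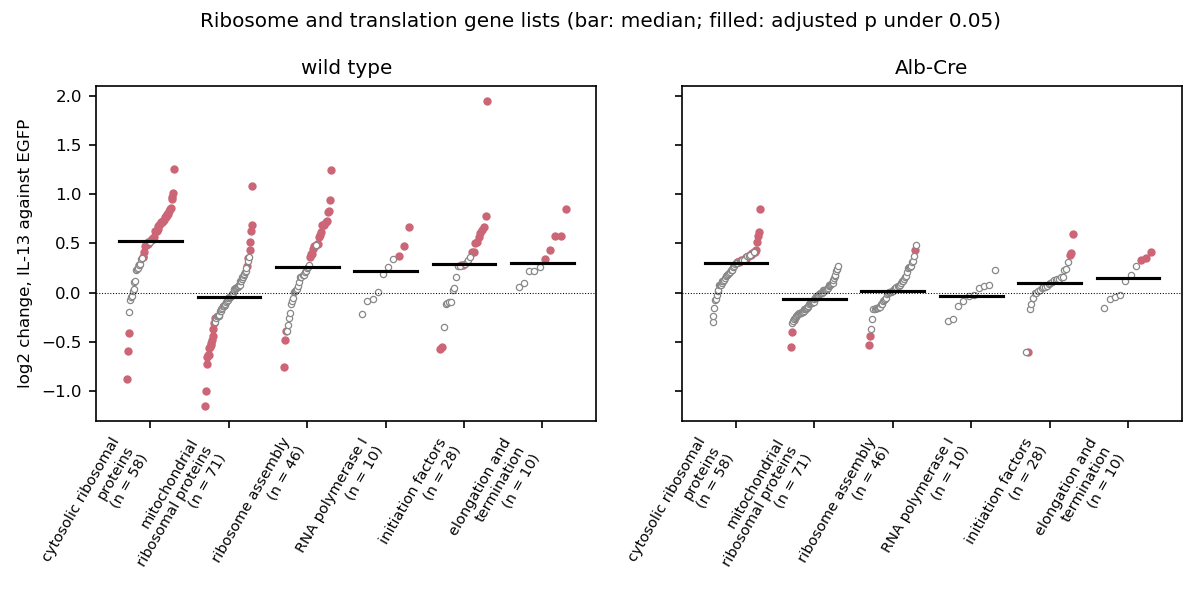
Log2 change with IL-13 against EGFP for every tested gene of 6 lists in wild type (left) and Alb-Cre (right), with bars at each list's median and filled points for an adjusted p under 0.05. In wild type the median of the 58 cytosolic members is 0.53 and that of the 71 mitochondrial ribosomal proteins is -0.05, and in Alb-Cre they are 0.30 and -0.07.

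Markers of other liver cells moved with the plasmid. The summed normalised signal of the 12 hepatocyte markers was 95463 to 100093 with EGFP and 73195 to 77542 with IL-13 in wild type, and 91637 to 99629 and 80629 to 87883 in Alb-Cre. Of these 12 genes, 6 were called lower and 1 higher in wild type, and 1 lower and 0 higher in Alb-Cre. Among all genes tested, 19.2% were lower and 21.5% higher in wild type, and 7.83% and 11.1% in Alb-Cre. Over the Kupffer cell list (8 on the array, Cd5l undetected in all groups) the sum was 1598 to 2042 with EGFP and 3001 to 4129 with IL-13 in wild type, and 1691 to 1995 and 2962 to 3961 in Alb-Cre. Its members differed in direction in wild type: of 6 tested, 4 were higher, among them C1qc (1.73), and 2 lower, Clec4f (-2.22) and Timd4 (-0.67). The neutrophil and stellate cell sums were also higher with IL-13 on every array of both genotypes, although Reln of the stellate list was lower in wild type (-2.94). The endothelial sum was 3494 to 3804 with EGFP and 1041 to 1436 with IL-13 in wild type, and 3433 to 4121 and 1095 to 2123 in Alb-Cre. For the monocyte and infiltrating macrophage list it was 303 to 407 and 135 to 230 in wild type, and 351 to 438 and 242 to 429 in Alb-Cre. The proliferation sum was 405 to 568 with IL-13 in Alb-Cre and 117 to 189 in the other groups. Their part in the ribosomal protein results was not tested.

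**Figure D5:**
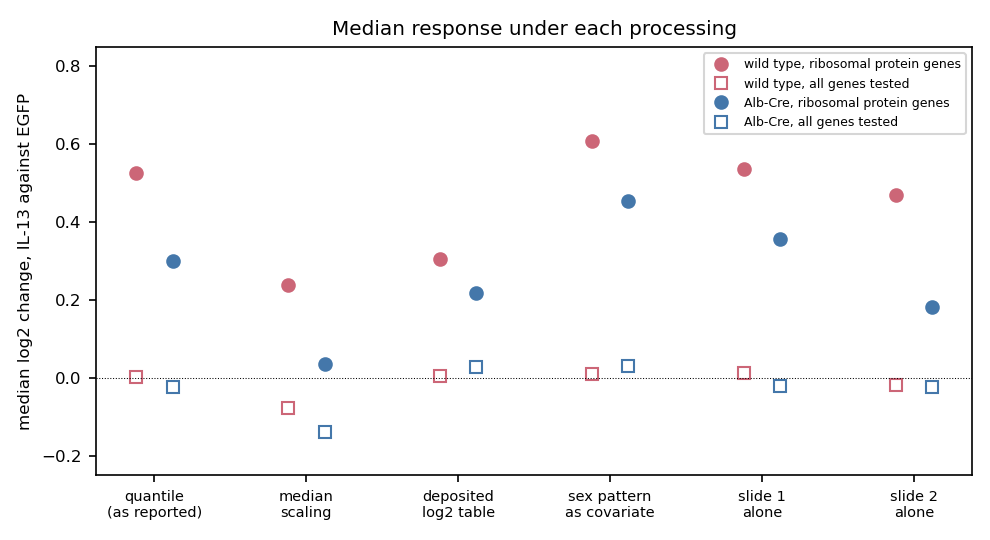
Median log2 change with IL-13 against EGFP over the ribosomal protein genes (filled circles) and over all genes tested (open squares) under 6 ways of processing. The members' median stays above that of all genes in each, and in Alb-Cre it runs from 0.03 with median scaling to 0.45 with the sex-linked pattern as a covariate.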

How the data were processed

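The deposited tables hold probe intensity on a linear scale with a detection p-value per array, per the file headers, and the submitters' processing notes name GenomeStudio 2011.1. The authors also deposited a log2 table, which equalled the log2 intensity after scaling each array to a median of 500. Other upstream steps are not given in the sources used here. In R 4.3.3, limma 3.58.1 applied normexp background correction (offset 16), quantile normalisation and log2. Probes with a detection p under 0.05 on at least 3 arrays were kept (14109 of 25697), and the brightest probe stood for each of 9711 genes. The platform table gave 1 symbol to 23978 probes and none to 1719. A model of group means, with the spread of each gene pooled over 14 arrays (10 residual degrees of freedom), gave 5 contrasts, tested two-sided with Benjamini-Hochberg adjustment. The fit was tested on simulated data.

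Samples were grouped by title, and for wild-type IL-13 the descriptions give other replicate numbers. The members, the gene lists and the alternatives were chosen with earlier results of these data known. Named genes were the 6 largest called rises and falls per contrast, the 3 highest and 3 lowest signals, a set of fixed members and paralogs, and up to 4 genes per other list by p. Rps2, Rps16, Rps20, Rpl19, Rpl27, Rpl28, Rpl31, Rpl35, Rpl38, Rps10 and the second probes were named after their values were seen. Fits on each slide alone were added after the data were seen. Lists were described by counts, and no list was tested.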

Additional observations from a re-analysis of the deposited data

Results flagged for a closer look

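Rps3 in wild type with EGFP had 1 array apart from the rest, since replicate 3 measured 10.38 where the others measured 10.64 to 10.66. Polr1e was low on wild-type EGFP replicate 4 (5.76, others 5.88 to 5.90), and Taf1d was high on Alb-Cre EGFP replicate 4 (5.50, others 5.18 to 5.22). These 3 came from 150 groups of 4 arrays examined, and chance alone flags about 1 in 20.

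The IL-13 response differed between genotypes, by limma's test of the difference (Alb-Cre minus wild type, adjusted p), for several of the named genes. Among the members these were Rpl12 (-0.68, 0.0114), Rps3 (-0.68, 0.0117), Rps3a1 (-0.55, 0.0332), Rps19 (-0.52, 0.0266), Rps26 (-0.52, 0.0447), Rpl24 (-0.50, 0.0496), Rpl27 (-0.46, 0.0302), Rps16 (-0.44, 0.0467), Rps4x (-0.40, 0.0474) and Rpl22 (0.58, 0.0489). Among translation and assembly genes they were Eif1a (-1.35, 0.000878), Eif5 (-0.51, 0.0465), Eif4ebp1 (-0.65, 0.0457), Gnl3 (-0.94, 0.00395), Gnl2 (-0.71, 0.00392) and Brix1 (-0.69, 0.00449). The mitochondrial Mrpl17 (-1.08, 0.000202) and Mrpl49 (0.95, 0.00443), the cell cycle inhibitor Cdkn1a (-1.48, 0.0384) and the reference gene Hprt (-0.47, 0.0276) also differed.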

How the results depend on the processing

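In wild type, the count of 39 higher members was 22 without quantile normalisation, 27 in the deposited log2 table and 37 on slide 1 alone. With the sex-linked pattern as a covariate it was 45, with 3 lower and a median of 0.61. It was 38 to 45 over the 14 fits that left out 1 array each. On slide 2 alone, with 1 wild-type IL-13 array, the members' median was 0.47. The 3 lower members were 2 on either slide alone and 2 to 3 with 1 array left out. In Alb-Cre, the count of 20 higher members became 3 without the quantile step (with 3 lower), 7 in the deposited log2 table, 10 with the sex-linked pattern as a covariate, 3 on slide 1 and 0 on slide 2, and 8 to 25 with 1 array left out (0 to 1 lower). For the difference of responses, the count of 9 lower members became 3 without the quantile step and 0 in the deposited table, with the covariate and on either slide. The count of 1 higher member became 0 without the quantile step, without the filter on dim probes, with the covariate and on either slide, and 2 in the deposited table. With 1 array left out the counts were 3 to 11 lower and 0 to 2 higher. Between genotypes with IL-13, the count of 20 lower members became 7, 5, 3, 2 and 0 under median scaling, the deposited table, the covariate, slide 1 and slide 2, and 5 to 20 with 1 array left out. In place of 2 higher members there was 1 with the covariate, another gene, 0 on slide 2, and 1 to 3 with 1 array left out. With EGFP, both counts stayed at 0 in all of these. Each slide alone has fewer arrays, and the causes of the other changes were not tested.

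Same-numbered replicates did not deviate together in all pairs (correlations between -0.12 and 0.28), so the numbers were not taken to pair samples. The replicate block gave 39 higher and 3 lower members in wild type, 20 and 0 in Alb-Cre, 1 and 7 for the difference and 2 and 18 between genotypes with IL-13. The covariate rests on wild-type IL-13 replicate 3 alone. Among the named genes, called values that changed sign were Rpl13a (-0.12) and Eef1b2 (-0.014) in Alb-Cre with the covariate, Actb in Alb-Cre as a mean of probes (-0.0029) and, without the quantile step in wild type, Gspt1 (-0.017) and Rps2 (-0.032). Probes near the floor, such as those of Rpsa and Rpl21, limit what their values can show.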
